A study of Mus musculus with 8 samples.

Results

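Ndnf, which encodes neuron-derived neurotrophic factor, is 1 gene of 54532 in a table of RNA levels from mouse hearts at postnatal day 4. It was chosen by its deposited FPKM values: its level differed most between the 2 groups of the study, being higher in cHET, so its values in the cHET and control libraries are given here as a description and carry no test. The cHET group (4 libraries) holds hearts of Mrps5 fl/+; Myh6-Cre animals, and the control group (4 libraries) holds hearts of Mrps5 fl/+ animals. Both groups thus carry 1 floxed Mrps5 allele, and cHET hearts carry in addition Cre recombinase under the promoter of Myh6, a cardiomyocyte myosin gene. This Cre is meant to remove that allele in cardiomyocytes. The MRPS5 protein is part of the small subunit of mitochondrial ribosomes. By this design, non-myocytes of a cHET heart keep both alleles. No group carries Cre without a floxed allele, so the presence of Cre and the loss of the allele cannot be told apart. The libraries were made from poly-A RNA of whole hearts, described as biological replicates, 4 per group. Depth was 15490622 to 19234777 reads in genes per library.

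Mrps5, the targeted gene, checks the labels. It had 6.84, 7.12, 6.995 and 7.68 FPKM in cHET 1 to 4, and 11.6, 6.27, 10.1 and 5.15 FPKM in control 1 to 4, where FPKM is fragments per kilobase of gene per 1000000 reads. Control 2 and control 4 thus lay below every cHET library, and control 1 and control 3 above. The means were 7.16 ± 0.365 FPKM in cHET and 8.27 ± 3.05 in control (SD, n = 4 each; exact two-sided permutation test, p = 0.486, where the smallest possible is 0.0286). Which exons are floxed is not given in the sources used here, so reads outside the removed part may count as Mrps5 in cHET. Mrps5 RNA therefore does not set the groups apart, control 2 and control 4 go against the order their label implies, and every library is named below as it is labelled.

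NDNF is a secreted glycoprotein with fibronectin type III domains that was named for its support of cultured neurons. In the mouse brain the gene is known as a marker of interneurons of the outermost cortical layer. In muscle and heart of mice, NDNF is known as a secreted factor induced by ischaemia that acts on endothelial cells and cardiomyocytes through integrins, focal adhesion kinase, Akt, endothelial nitric oxide synthase and AMP-activated kinase. It also binds FGF receptor 1, and the human gene is among those linked to a failure of neurons that make gonadotropin-releasing hormone (GnRH) to reach the brain. The values below are gene-level RNA in whole hearts, in which fewer cells of a type and less RNA per cell cannot be told apart, and they do not say which cells hold the transcript.

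Ndnf (ENSMUSG00000049001) lies on the plus strand of chromosome 6, from 65671590 to 65712326 on GRCm38. GENCODE M21 gives it 2 transcripts. The coding transcript, Ndnf-201, has 4 exons: a first exon of 512 bases that is 5′ UTR throughout, exons 2 and 3 of 189 and 125 bases, and a last exon of 9275 bases, from 65703052 to 65712326. Its coding sequence spans 568 codons from exon 2 to the first 1391 bases of exon 4, and the 7884 bases after that are annotated as 3′ UTR. The last exon makes up 91.7% of the 10114 bases of gene length by which the authors scaled Ndnf, so most of the sequence in which reads could be counted is 3′ UTR. The second transcript, Ndnf-202, is annotated as a retained intron within the same gene, and the table does not separate the 2. No other gene of the table overlaps Ndnf on either strand, so its reads have no overlapping neighbour to be shared with.

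The libraries labelled cHET 1 to 4 had 7.85, 7.49, 7.05 and 7.57 FPKM of Ndnf, and those labelled control 1 to 4 had 0.764, 1.03, 0.990 and 0.640 FPKM. All 4 cHET libraries lay far above all 4 control libraries. The lowest cHET library, cHET 3, stood at 6.855 times the highest control library, control 2. Ndnf averaged 7.49 ± 0.331 FPKM in cHET and 0.856 ± 0.185 FPKM in control (SD, n = 4 each), a ratio of 8.75 and a difference of 6.63 FPKM. With control 2 and control 4 both left out, chosen after Mrps5 was seen, the ratio was 8.54.

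The reads behind these values numbered 1357, 1511, 1145 and 1329 in cHET 1 to 4, and 120, 168, 158 and 106 in control 1 to 4. They were rebuilt from the deposited FPKM, since FPKM times gene length came in whole steps. The 95% exact Poisson interval, which covers counting error only, ran from 6.65 to 7.47 FPKM for cHET 3, the lowest cHET library. It ran from 0.879 to 1.2 FPKM for control 2, the highest control library, and from 0.524 to 0.774 for control 4, the lowest. The intervals of the groups were far apart, whereas cHET 1 and cHET 3, the ends of the cHET range, had intervals that touched.

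**Figure D1:**
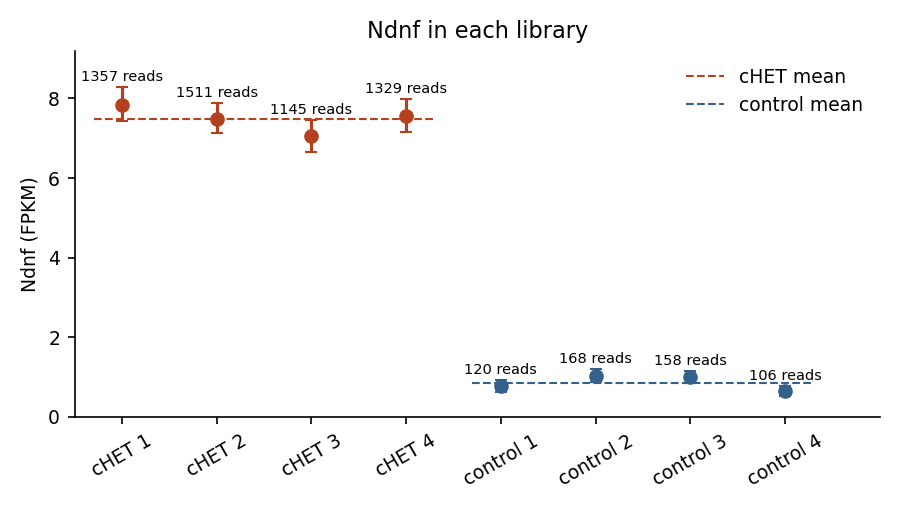
Ndnf in FPKM (vertical axis) in each of the 4 cHET and 4 control libraries (horizontal axis). Points are the deposited values, bars their 95% exact Poisson intervals, numbers the rebuilt reads and dashed lines the group means. The cHET libraries sit between 7.05 and 7.85 FPKM and the control libraries between 0.640 and 1.03.

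The replicates of Ndnf lay close together in cHET and less so in control. Their coefficient of variation, the SD over the mean, was 4.42% in cHET, where counting alone would give 2.74% at a mean of 1335.5 reads. In control it was 21.6%, where counting alone would give 8.51% at a mean of 138 reads. Over the 13029 genes with a mean of at least 1 FPKM the median coefficient of variation was 10.8% in cHET and 15.7% in control. Genes whose group mean was within 1.25-fold of that of Ndnf had a median of 9.35% in cHET (1863 genes) and 32.1% in control (1304 genes), whether or not they were tested. Of the genes tested, 8.53% had a lower coefficient of variation than Ndnf in cHET and 69.2% in control.

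Ndnf was among the mid-level genes in cHET and among the weakly detected ones in control. It ranked 5566 to 6039 from the top among the 54532 genes in the cHET libraries, and 12959 to 14248 in the control libraries. Among genes with any read, 72.9 to 75.9% had a lower FPKM than Ndnf in a cHET library, against 37.5 to 42.9% in a control library.

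A mean of at least 1 FPKM in cHET together with a mean under 1 FPKM in control was found for 353 genes. Of these 353 genes Ndnf had the highest mean in cHET, and the next highest stood at 3.53 FPKM. Ndnf entered the genes tested, which needed a mean of at least 1 FPKM over the 8 libraries, through its cHET values, since its control mean is below 1.

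On the scale of log2(FPKM + 1), the fold change of Ndnf was 2.20 (cHET minus control), the highest of the 13029 genes tested and of the 29675 genes with a read in any library. This scale understates the change of a gene near 1 FPKM, and the log2 of the ratio of the means was 3.13. The median log2 fold change of the genes tested was 0.0086, the central 95% lay between -0.43 and 0.45, and the most negative value was -1.66. A log2 fold change above 1 was seen for 37 genes and one below -1 for 23. By the difference in mean FPKM, Ndnf ranked 283.

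The 5 genes next to Ndnf by log2 fold change were of another kind: 4 short or pseudogene transcripts with few reads, and Xist. The miRNA genes Gm27415 (1.67) and Gm24561 (1.62), the snoRNA gene Gm26202 (1.61) and the pseudogene Gm19774 (1.49) had no limma adjusted p under 0.275. Xist (1.63; limma, adjusted p = 0.774), the RNA that silences an X chromosome in females, followed the sex of the animals. By the plain ratio of means, 2 tested genes stood above Ndnf and 1 more was at 0 in control. Gm24561 rested on 18 reads over the cHET libraries and 1 over the control libraries, and Snord98 on 11 and 1. Gm19774 had 18 reads over the cHET libraries and 0 over the control libraries. Ndnf, by contrast, had over 100 reads in every library.

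**Figure D2:**
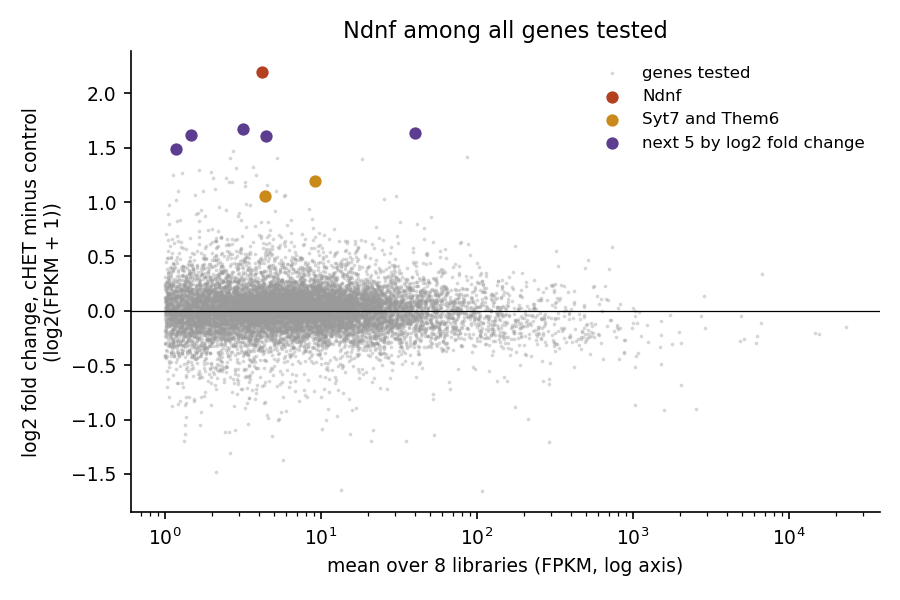
Log2 fold change, cHET minus control, on the log2(FPKM + 1) scale (vertical axis) against the mean FPKM over the 8 libraries (horizontal axis, log scale) for the 13029 genes tested (grey). Ndnf stands at 2.20, above the 5 next genes (purple, 1.49 to 1.67) and above Syt7 and Them6 (orange).

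Expressed as called genes, 3 of the 13029 were higher in cHET (0.023% of those tested; limma, adjusted p under 0.05) and 0 were lower (0.0%). An unadjusted p under 0.05 was found for 655 genes higher in cHET (5.03%) and 511 lower (3.92%), and limma voom on the rebuilt reads called 2 higher and 0 lower. Ndnf is among the 3, which follows from how it was chosen and says nothing further about it. The other genes called were Syt7, a calcium sensor of membrane fusion, and Them6. Syt7 averaged 13.2 ± 1.2 FPKM in cHET and 5.20 ± 0.610 in control, and Them6 6.28 ± 0.873 in cHET and 2.51 ± 0.433 in control (SD, n = 4 each). Them6 was no longer called by limma when any 1 library was left out, whereas Syt7 was called in each such fit. Within the groups, both went against Ndnf, whose spread there is small and partly counting error. The Pearson correlation of deviations from the group means with those of Ndnf, over 8 libraries, was -0.78 for Syt7 and -0.74 for Them6. The most negative value of any gene tested was -0.973. cHET 1, the highest library for Ndnf, was the lowest cHET library for Syt7, at 12.1 FPKM.

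Sex and a brown fat signal differed between libraries, and the values of Ndnf are given by each. Xist and the Y-linked gene Ddx3y mark cHET 1, control 1 and control 3 as male and the other 5 libraries as female. Ndnf stood at 7.85 FPKM in the male cHET library and averaged 0.877 in the 2 male control libraries, a ratio of 8.95. It averaged 7.37 FPKM in the 3 female cHET libraries and 0.834 in the 2 female control libraries, a ratio of 8.84. Ucp1, the uncoupling protein of brown fat, stood at 6.56 FPKM in cHET 2 and at 17.8 and 16.7 in control 1 and control 2, and at 1.62 or less elsewhere. With control 1 and control 2 both left out, likewise chosen after the values were seen, the ratio for Ndnf was 9.19.

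Genes near Ndnf on chromosome 6 were examined next, over 1 Mb on each side of the gene. The window holds 43 other genes of the table, 13 of them protein-coding, and 25 had no read in any library. Of the 43, 4 were tested and 0 passed (limma, adjusted p under 0.05, against 0.023% of all genes tested as higher and 0.0% as lower). The 631 genes of chromosome 6 that were tested had a median log2 fold change of 0.0025, and 0 of them passed besides Ndnf.

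The nearest protein-coding gene is Tnip3, an inhibitor of NF-κB signalling, which ends 37.55 kb before Ndnf starts. Tnip3 was barely detected, with a mean of 0.0554 FPKM in cHET and 0.0965 in control. Farther out, Smarcad1, a chromatin remodeller, averaged 2.62 ± 0.119 FPKM in cHET and 2.44 ± 0.299 in control (SD, n = 4 each; log2 fold change 0.077; limma, adjusted p = 0.774). Mad2l1, a spindle checkpoint gene 823 kb beyond Ndnf, had 6.28, 6.94, 7.16 and 7.51 FPKM in cHET 1 to 4 and 4.70, 5.85, 5.48 and 5.25 in control 1 to 4. The groups did not overlap for Mad2l1, as for 2.74% of all genes tested in this direction, and it did not pass (log2 fold change 0.34, SE 0.0862; limma, adjusted p = 0.337). The small nuclear RNA gene Gm23543, also tested, did not pass (log2 fold change 0.25, SE 0.44; limma, adjusted p = 0.861).

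Of the coding neighbours under the filter, Hpgds, a prostaglandin synthase gene, averaged 0.363 FPKM in cHET and 0.562 in control. Its groups did not overlap (0.349 to 0.390 FPKM in cHET, 0.411 to 0.780 in control), as for 2.0% of all genes tested in this direction. Hpgds itself was not tested. C130060K24Rik, Vmn1r32 and Vmn1r35 had a mean of 0.0368 FPKM or less in each group. Atoh1, 4930544G11Rik, Vmn1r33 and Vmn1r34 were listed at 0 in every library.

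**Figure D3:**
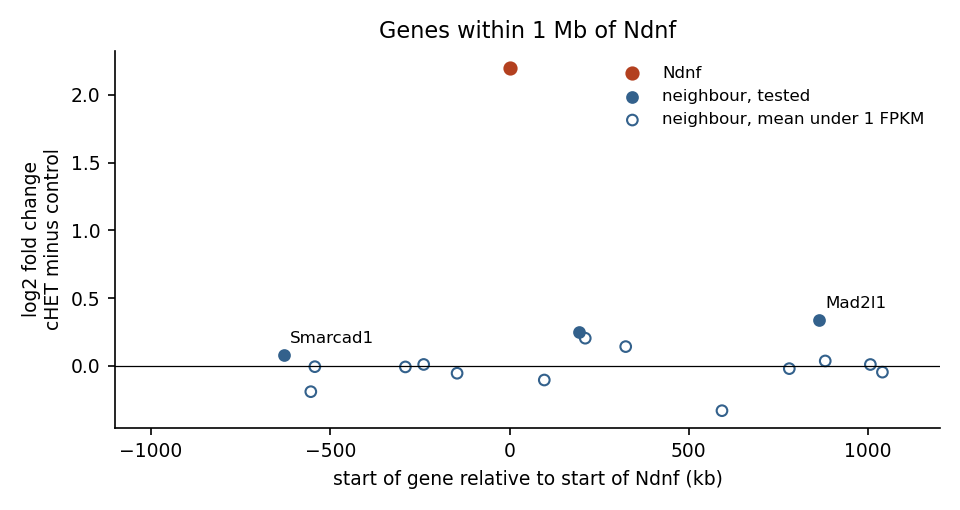
Log2 fold change, cHET minus control, on the log2(FPKM + 1) scale (vertical axis) of Ndnf and of the genes within 1 Mb that had a read (horizontal axis, start of the gene relative to the start of Ndnf in kb). Filled points were tested, open points had a mean under 1 FPKM, and 2 neighbours are not shown. Ndnf stands at 2.20 and the tested neighbours shown between 0.077 and 0.34.

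Genes whose values follow Ndnf were ranked by Pearson's r of log2(FPKM + 1) over the 8 libraries, given as a description with no p. Since Ndnf falls into separate clusters in cHET and control, its r with the group label itself is 0.996, and the measure mainly finds genes that separate the groups evenly. An r above 0.9 was found for 33 genes and one below -0.9 for 7. The 10 highest had r of 0.949 to 0.973 and the 10 lowest -0.945 to -0.897. All 20 had groups that do not overlap, against 4.74% of all genes tested, which follows from how they were chosen.

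The gene most like Ndnf was Hhatl, a relative of hedgehog acyltransferase (r = 0.973). It had 31.9, 30.7, 32.7 and 31.6 FPKM in cHET 1 to 4 and 27.2, 27.4, 27.9 and 26.7 in control 1 to 4, so its 4 cHET libraries lay above its control libraries by a small step. Next came Eif5a2, a translation factor gene (2.60 FPKM in cHET and 2.00 in control on average), and Syt7. Tmem101 averaged 11.2 FPKM in cHET and 9.24 in control. Lgi3, which encodes a secreted leucine-rich protein, averaged 2.83 ± 0.157 FPKM in cHET and 1.42 ± 0.30 in control (SD, n = 4 each).

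The lincRNA gene Gm26517 averaged 2.01 FPKM in cHET and 0.255 in control, a ratio of 7.87 that is close to that of Ndnf at a lower level. Its cHET values were 2.25, 2.31, 1.22 and 2.26 FPKM and its control values 0.385, 0.106, 0.270 and 0.260 FPKM, and it did not pass (limma, adjusted p = 0.0559). Like Ndnf, Gm26517 entered the genes tested through its cHET values. It was called under TPM scaling, quantile normalization and library weights, and without cHET 3. Under the other alternatives, no filter on low values among them, Gm26517 was not called or not tested. Mtf2, a Polycomb accessory gene, Sephs2, a selenophosphate synthetase gene, and Hmgb1-ps2 are also among the 10. Hmgb1-ps2 is a processed pseudogene that can share reads with Hmgb1, so its value is uncertain. The log2 fold changes of the 10 ran from 0.17 to 1.25, and 1 of them, Syt7, passed over all genes.

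The 10 genes most opposite to Ndnf included Npr3, which clears natriuretic peptides, Sall1, a zinc finger transcription factor, and Rhd, a Rhesus blood group gene. Npr3 had 5.01, 5.87, 4.40 and 4.22 FPKM in cHET 1 to 4 and 7.41, 10.2, 9.25 and 8.31 in control 1 to 4. Sall1 averaged 1.40 ± 0.127 FPKM in cHET and 2.47 ± 0.316 in control, and Rhd 2.95 ± 0.301 in cHET and 5.45 ± 1.21 in control (SD, n = 4 each). The lowest r, -0.945, belonged to Podxl2, a sialomucin gene, at 5.85 ± 0.0603 FPKM in cHET and 6.94 ± 0.352 in control (SD, n = 4 each). Gm36372, Manea, Zfp862-ps, Tbkbp1, March2 and Dynlt1c complete the list. The table lists March2 under a date-like name, and it is identified here by its gene ID. Dynlt1c has near-identical copies, so its value is uncertain. None of the 10 passed (limma, adjusted p 0.203 to 0.664), and their log2 fold changes ran from -0.86 to -0.099.

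**Figure D4:**
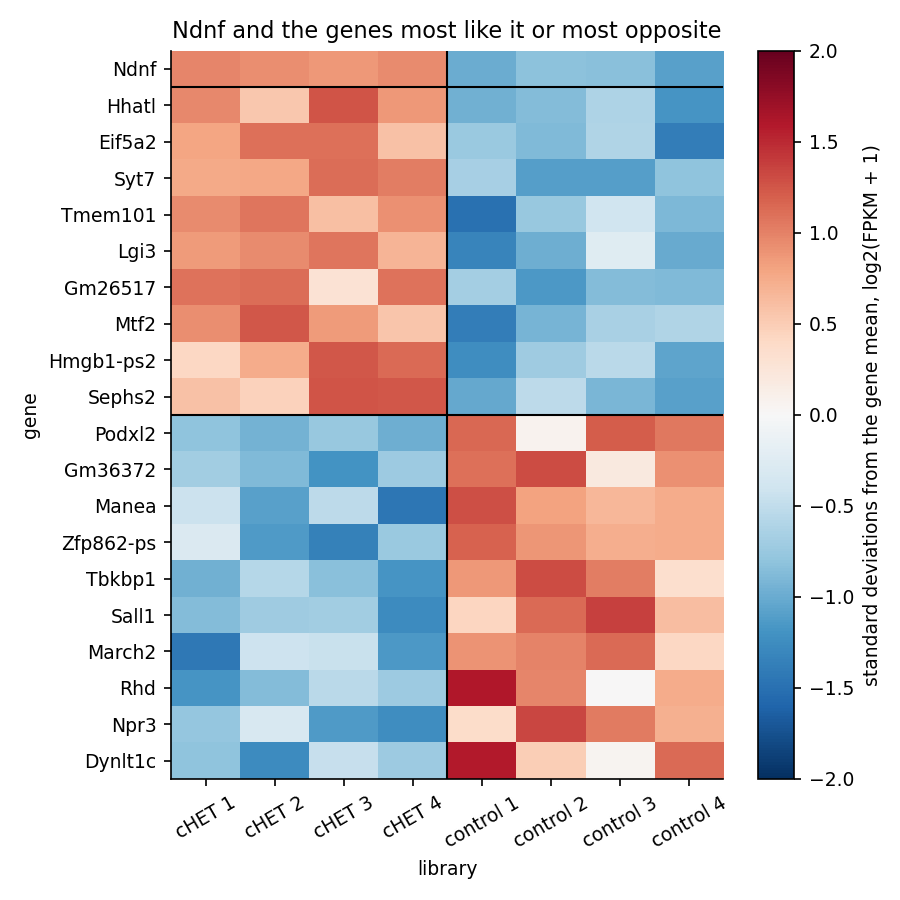
Log2(FPKM + 1) of Ndnf and of the 20 genes with the highest and lowest Pearson's r to it (rows, 1 gene not shown), as standard deviations from the mean of each gene over the 4 cHET and 4 control libraries (columns). The cHET and control libraries do not overlap in any row, though some libraries, such as control 3 for Rhd, lie close to the gene mean. The order of libraries within a group differs from gene to gene.

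Within the groups, the 20 genes differed in how far they went with Ndnf from animal to animal. After subtraction of the group means, r with Ndnf was -0.78 to 0.71 for the 10 highest and -0.73 to 0.68 for the 10 lowest. Of the 20 genes, 0 were also among the 10 highest or 10 lowest by these deviations. The genes with the closest deviations were Snapc2, a subunit gene of a complex for small nuclear RNA transcription (r = 0.985), and Smoc1, which encodes a secreted calcium-binding matrix protein (r = 0.967). Cdkl1 (r = -0.973) and Appl1, an adaptor of endosomes (r = -0.971), were the most opposite. Each of these overlapped between cHET and control, and they rest on a spread of Ndnf within groups that is small and partly counting error.

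The genes through which NDNF is known to signal were all measured, and none passed the test. Of the 10 genes, 10 were tested and 0 passed in either direction (limma, adjusted p 0.639 to 0.898), with 5 log2 fold changes above 0 and 5 below, and a median of 0.0079 beside 0.0086 over all genes tested. Under TPM scaling the median of the 10 was 0.11, where all genes shift by 0.10. With control 1 and control 2 both left out it was -0.097.

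Fgfr1, the FGF receptor to which NDNF binds, had 6.35, 6.77, 5.22 and 6.12 FPKM in cHET 1 to 4 and 5.65, 6.60, 6.42 and 7.12 in control 1 to 4. The groups overlapped. In FPKM, a level per gene length, Ndnf was above Fgfr1 in every cHET library and below it in every control library. The integrin chain genes Itgav (log2 fold change -0.057, SE 0.131) and Itgb3 (-0.12, SE 0.124) and the focal adhesion kinase gene Ptk2 (0.060, SE 0.108) did not pass.

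The kinase genes Akt1 (-0.045, SE 0.106) and Akt2 (0.09, SE 0.115) were likewise not called. Nos3, the endothelial nitric oxide synthase, averaged 15.4 ± 1.01 FPKM in cHET and 16.9 ± 0.533 in control (SD, n = 4 each; log2 fold change -0.13; limma, adjusted p = 0.639). The subunit genes of AMP-activated kinase stood at log2 fold changes of 0.12 for Prkaa1 (SE 0.0932) and 0.12 for Prkaa2 (SE 0.203). These are RNA levels and do not measure kinase activity.

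FGF receptors and feedback inhibitors of the FGF pathway showed no call among 12 tested members of 17, with 7 above 0 and 5 below and a median log2 fold change of 0.06. That median was -0.04 with control 1 and control 2 both left out. Flrt2, an FGF receptor partner and guidance protein gene, was the 1 member with an unadjusted p under 0.05. It had 2.00, 2.55, 2.02 and 2.08 FPKM in cHET 1 to 4 and 2.95, 3.35, 3.11 and 2.60 in control 1 to 4. The groups did not overlap, as for 2.0% of all genes tested in this direction, and Flrt2 did not pass (log2 fold change -0.34, SE 0.095; limma, adjusted p = 0.371).

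Of 23 genes linked to GnRH deficiency, 9 were tested and 0 passed, with a median log2 fold change of 0.11 that was -0.048 with control 1 and control 2 both left out. Dusp6, a feedback phosphatase of the pathway, had the smallest unadjusted p (log2 fold change 0.21, SE 0.132; limma, adjusted p = 0.65). Tacr3, Kiss1 and Gnrhr were listed at 0 in every library.

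Other secreted neurotrophic factors gave no call. Of 16 such genes, 10 were tested and 0 passed, with 4 log2 fold changes above 0 and 6 below. Their median was -0.056 as deposited, 0.036 under TPM scaling and 0.12 with control 1 and control 2 both left out. Ordered by mean FPKM together with these 16, Ndnf ranked 7 of 17 in cHET and 12 of 17 in control. In cHET it stood next below Metrnl (11.8 ± 0.424 FPKM), by more than the spread of either gene. In control it stood between Metrn (1.02 ± 0.244) and the poorly expressed Ntf5 (0.277 ± 0.214), and Metrn and Ndnf overlapped within their spread (SD, n = 4 each).

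Metrnl, a secreted relative of meteorin, was the 1 tested member with an unadjusted p under 0.05. It had 12.3, 11.9, 11.5 and 11.4 FPKM in cHET 1 to 4 and 9.42, 11.0, 8.99 and 8.62 in control 1 to 4. The cHET libraries lay above the control libraries, with control 2 close behind, and Metrnl did not pass (log2 fold change 0.28, SE 0.0861; limma, adjusted p = 0.417). Of 10 neurotrophic receptor genes, 4 were tested and 0 passed, and Gfra2 had the smallest unadjusted p (log2 fold change 0.18, SE 0.136; limma, adjusted p = 0.69).

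**Figure D5:**
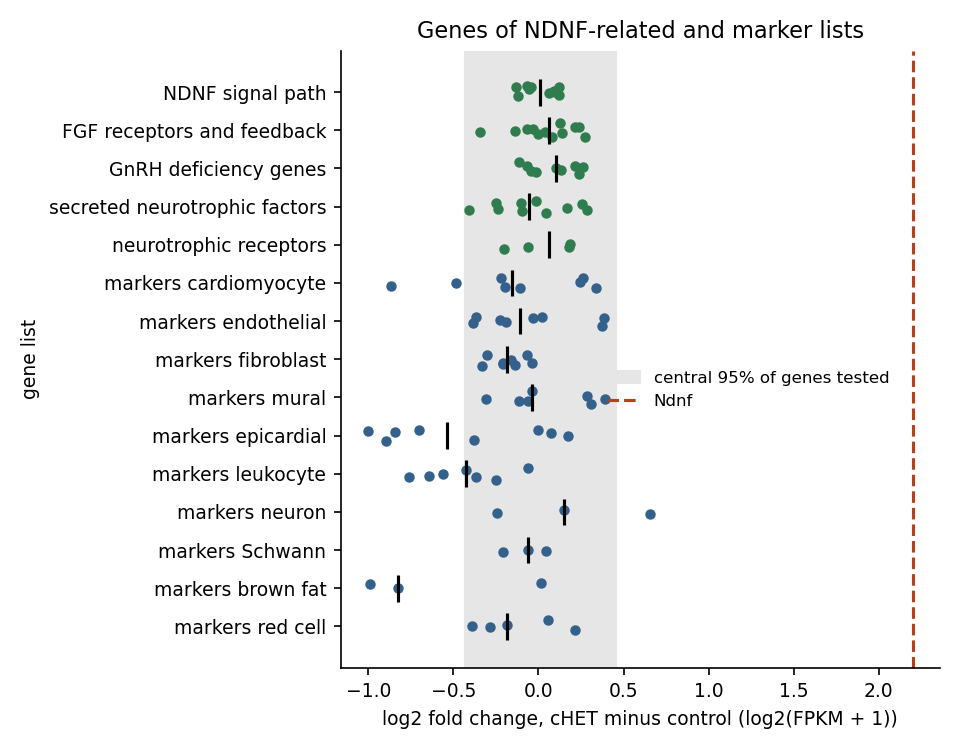
Log2 fold changes, cHET minus control, on the log2(FPKM + 1) scale (horizontal axis) of the tested members of 5 NDNF-related lists (green) and 10 cell type marker lists (blue), 1 row per list. Black ticks are list medians, the grey band is the central 95% of genes tested (-0.43 to 0.45) and the dashed line is Ndnf at 2.20.

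Marker genes of heart cell types were read beside Ndnf, since whole hearts mix cell types. None of the tested markers on the 10 lists passed. Cardiomyocyte markers were at the levels of a heart, with Actc1 at 7578 ± 1412 FPKM in cHET and 5920 ± 520 in control and Myh6 at 1812 ± 309 in cHET and 2146 ± 722 in control (SD, n = 4 each). The summed level of the 8 cardiomyocyte markers was 11059 to 14470 FPKM in cHET and 11301 to 13454 in control. Of these 8, 5 log2 fold changes were below 0 and 3 above, with a median of -0.15 that was 0.10 under quantile normalization. Of those 5, 1 had an unadjusted limma p under 0.05, a threshold that 3.92% of all genes tested met as lower. Summed endothelial markers ran from 351 to 395 FPKM in cHET and from 368 to 398 in control, with Fabp4 (log2 fold change 0.021) and Cdh5 (0.38) the most abundant. Of the 8 endothelial markers, 5 were below 0, with a median of -0.11. Of those 5, 3 had an unadjusted p under 0.05, beside that 3.92% of all genes tested. Fibroblast markers summed to 467 to 757 FPKM in cHET and 511 to 761 in control, with 8 of 8 below 0, a median log2 fold change of -0.18, and Col3a1 (-0.16) and Col1a1 (-0.04) leading. That median was -0.073 without cHET 3 and -0.29 without control 1. Mural markers summed to 506 to 821 FPKM in cHET and 421 to 872 in control, with Acta2 (0.39) and Rgs5 (-0.11) leading. In these 4 lists the sums overlapped between the groups.

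Epicardial and leukocyte markers had lower sums in most cHET libraries, without a call. The 8 epicardial markers summed to 44.2 to 64.7 FPKM in cHET and 64.2 to 111 in control, with 6 of 8 below 0 and a median log2 fold change of -0.54 (-0.34 without control 2, and -0.32 with control 1 and control 2 both left out). Aldh1a2 (0.17) and Msln (-0.90) were the most abundant of them. The 8 leukocyte markers summed to 47.6 to 69.2 FPKM in cHET and 62.2 to 123 in control, with 7 of 7 tested members below 0 and a median of -0.43 (-0.26 without control 2, and -0.24 with those 2 libraries left out). C1qa (-0.43) and C1qb (-0.56) led that list. An unadjusted limma p under 0.05 was found for 4 of the 8 epicardial and 4 of the 7 tested leukocyte markers. Each of these was lower in cHET, beside 3.92% of all genes tested in this direction. The part of the epicardial and leukocyte markers in the level of Ndnf was not tested.

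Neuronal markers, read for a gene named after neurons, had a higher sum in cHET through 1 gene. The 8 markers summed to 27.8 to 38.8 FPKM in cHET and 20.4 to 26.7 in control, without overlap. Uchl1, a ubiquitin hydrolase gene abundant in neurons, made up most of the sum. It had 31.9, 29.6, 24.95 and 36.1 FPKM in cHET 1 to 4 and 16.6, 20.6, 21.5 and 17.5 in control 1 to 4, and it did not pass (log2 fold change 0.65, SE 0.128; limma, adjusted p = 0.275). Dbh, an enzyme gene of noradrenaline synthesis, averaged 1.64 ± 0.656 FPKM in cHET and 2.10 ± 0.615 in control (SD, n = 4 each). Th, Elavl4 and Snap25, which define neurons more strictly, each averaged 0.115 FPKM or less in either group. None of the 8 was at 0 in all libraries, and 3 were tested.

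Schwann cell markers summed to 6.04 to 10.2 FPKM in cHET and 7.17 to 8.07 in control, led by Cnp (log2 fold change 0.042). Brown fat markers summed to 29.0 to 43.2 FPKM in cHET and 24.6 to 61.0 in control. Cidea, which made up most of the sum in every library, averaged 30.3 FPKM in both groups, and Ucp1 varied as given above. Of the 3 tested brown fat markers, 1 was above 0 and 2 below, with a median log2 fold change of -0.83. That median was 0.35 with control 1 and control 2 both left out. Red cell markers summed to 1385 to 2080 FPKM in cHET and 919 to 7306 in control, led by Hbb-bs (-0.29) and Hba-a1 (-0.39). The highest sum was that of control 2, and the median log2 fold change of the list was -0.18 with control 2 and 0.27 without it.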

How the data were processed

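RNA of whole hearts from 4 cHET and 4 control mice was measured as gene-level FPKM, deposited in 1 table that the authors scaled for length and a library total. The total that the FPKM imply was 0.968 (control 1) to 1.036 (cHET 2) times the rebuilt reads in genes of the same library. The submitters' processing notes name, without roles, DESeq2 1.20.0, featureCounts 1.5.0-p3 and HISAT2 2.0.5, and build mm9. However, GENCODE M21 places 53499 of 54409 shared gene IDs (98.3%) at the same start and end, so coordinates are given on GRCm38. Whether counting used strand is not given in the sources used here.

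FPKM times gene length gave whole reads for 100% of values above 0 (within 0.05 reads). Genes with a mean of at least 1 FPKM (13029) were tested as log2(FPKM + 1), cHET against control, two-sided, with limma 3.58.1 in R 4.3.3 (trend, robust) and Benjamini-Hochberg adjustment. Tested on simulated reads, the fit missed most small changes, and false calls were above their nominal share. No pair of replicates came closer than a chi-square of 16.4 per gene, so each counted as 1 library. The limma p-values set the difference between the groups against the spread of these libraries within groups, moderated over all genes tested.

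Ndnf and the gene lists were chosen with earlier results of these data known; 141 of 142 list symbols were found. Named are Ndnf, Mrps5, the 10 genes at each end of Pearson's r to Ndnf, the 5 next largest log2 fold changes, coding genes within 1 Mb, tested signal-path genes, other pathway members with an unadjusted p under 0.05 (or the smallest p), and the 2 most abundant markers per list; some genes under this rule are not reported here. Named outside this rule, after their values were seen, are Them6, Snord98, Gm23543, Ddx3y, Metrn, Ntf5, Snapc2, Smoc1, Cdkl1, Appl1, Th, Elavl4, Snap25 and the genes listed at 0. Alternatives were other pseudocounts, filters and scalings, weighted libraries, voom, sex as a covariate, a replicate block and libraries left out.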

Additional observations from a re-analysis of the deposited data

Results flagged for a closer look

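Of 128 groups of 4 libraries examined over the named genes with a mean of at least 1 FPKM, 8 held 1 library far from the other 3, where chance flags about 5% of groups, and Ndnf was in neither group among them. In cHET, the library cHET 3 had 1.22 FPKM of Gm26517, against 2.25 to 2.31 in the other cHET libraries. The library cHET 2 had 4.82 FPKM of Ptk2 (5.74 to 5.89 in the others), 2.55 FPKM of Flrt2 (2.00 to 2.08) and 20.3 FPKM of C1qb (13.3 to 14.1). In control, control 2 had 6.42 FPKM of Podxl2 (7.06 to 7.17 in the others) and 753 FPKM of Acta2 (321 to 352). The library control 1 had 148 FPKM of Col3a1 (211 to 223 in the others) and 0.678 FPKM of Gm24561, where the other control libraries were at 0.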

How the results depend on the processing

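The ratio of Ndnf between cHET and control was 8.08 to 9.39 with any 1 library left out and 9.41 under TPM scaling. Its log2 fold change was 3.01 with a pseudocount of 0.1, 2.75 under TPM scaling and 3.14 by voom on the rebuilt reads, since a smaller or relatively smaller pseudocount shrinks a low level less, and 2.14 to 2.24 with any 1 library left out. Genes called higher numbered 1 at a mean of at least 5 FPKM and 1 at a mean of at least 1 FPKM in control, filters that leave Ndnf untested. Library weights gave 8 higher, Gm26517 among them, and 3 lower, Npr3 among them (the cause was not tested), and with any 1 library left out 2 to 3 were higher and 0 lower. With control 2 and control 4 both left out, 3 were higher and 2 lower. TPM scaling and quantile normalization each gave 4 higher, Gm26517 among them. With the replicate block 1 gene was called higher, and Syt7 and Them6 were not called. The sample labels do not say whether the replicate numbers pair the animals. The deviations of same-numbered libraries correlated above 0.1 in 2 of 4 pairs, and 2 of 4 cHET libraries correlated best with their own number.

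The list of 20 genes most like or most opposite to Ndnf depended on the libraries and on some settings. With a pseudocount of 0.1, 18 of the 20 were kept, and under quantile normalization 16. With any 1 library left out, 3 to 11 were kept (3 without control 2, 5 without control 4). With no filter 7 were kept, under TPM scaling 5 and with sex as a covariate 11. With the replicate block 0 were kept, by deviations from group means 0 and by Spearman's rho 0. The cause was not tested. With any 1 library left out, the median log2 fold change was -0.035 to 0.053 for the signal path list, 0.0046 to 0.12 for FGF receptors and feedback, 0.039 to 0.18 for GnRH deficiency genes and -0.15 to 0.042 for neurotrophic factors. The difference in Mrps5 was -2.16 to -0.022 FPKM with any 1 library left out. No member of the 5 NDNF-related lists and no neighbour of Ndnf was called under any of these alternatives.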
